A study of Mus musculus with 8 samples.

Results

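Chondroitin, dermatan and heparan sulfate are long sugar chains carried by proteoglycans, and the enzymes that build, sulfate and edit them are described here in the hypothalamus of mouse pups treated with PLX3397. The set holds 42 genes, taken by gene symbol from a list of known enzymes that was chosen with earlier results of these data known. All 42 were found among the 55401 genes of the deposited table. By role it holds 6 enzymes of the shared linker, 6 that lengthen chondroitin chains, 10 that sulfate or epimerise chondroitin and dermatan sulfate, 5 that lengthen heparan chains, 13 that modify heparan sulfate and 2 that remove sulfate from it outside the cell.

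RNA was sequenced from 8 mouse hypothalami collected on postnatal day 19, from pups that had received vehicle or PLX3397 by gavage between postnatal days 9 and 15. PLX3397 inhibits the receptor CSF1R, on which microglia depend for survival. The vehicle and the PLX3397 group held 4 pups each, 2 females (F1, F2) and 2 males (M1, M2), and the labels give the tissue as brain where the series design gives hypothalamus. No strain was named in the labels. The compound was given to the whole animal, and each library holds the RNA of all cell types of the piece of tissue, so fewer cells of a type and less RNA per cell cannot be told apart.

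Every chain of both kinds starts on a serine of a core protein with the same short linker, which begins with xylose. Addition of N-acetylgalactosamine then commits the chain to chondroitin sulfate, and addition of N-acetylglucosamine commits it to heparan sulfate. Sulfotransferases place sulfate at set positions of the sugars, which alters what the chain binds. In the brain, chondroitin sulfate chains are a main part of perineuronal nets, and heparan sulfate holds growth factors near cell surfaces.

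Total counts ran from 54115300 to 67487391 per library. Neuronal and hypothalamic markers were present in all 8 libraries: the 8 neuronal markers summed to between 3834 and 4292 CPM (counts per 1000000, on TMM-scaled library sizes) and the 11 hypothalamic markers to between 756 and 1748 CPM. The highest hypothalamic sum was that of vehicle F1, and the next was 1257 CPM in PLX3397 M2. The 8 microglial markers summed to 243 to 257 CPM in vehicle and 23.0 to 43.8 CPM in PLX3397 libraries. Pituitary markers reached 3062 CPM in vehicle F1, against 4.90 to 14.4 CPM in the other 7 libraries. PLX3397 M2 had the lowest sums of microglial and myelin markers, and the comparison was repeated without these 2 libraries. The female and male labels matched sex-linked transcripts in all 8.

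Levels of different enzymes can be compared only per length, for which the deposited FPKM (fragments per kilobase of transcript per 1000000 fragments) was used. The median enzyme had a mean of 6.51 FPKM, against 4.46 FPKM over all tested genes. The most abundant were the linker enzyme B3gat3 (34.4 FPKM), the sulfatase Sulf2 (25.1 FPKM) and the heparan enzymes Extl3 and Extl2 (24.2 and 22.0 FPKM). At the low end stood the 4-O-sulfotransferase Chst13 and the 6-O-sulfotransferase Chst7 (0.389 FPKM). Chst13 had no count in 7 libraries, which in a vehicle library allows up to 0.0503 to 0.0557 CPM, and 8 counts in PLX3397 F1. This limit covers counting error only.

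**Figure D1:**
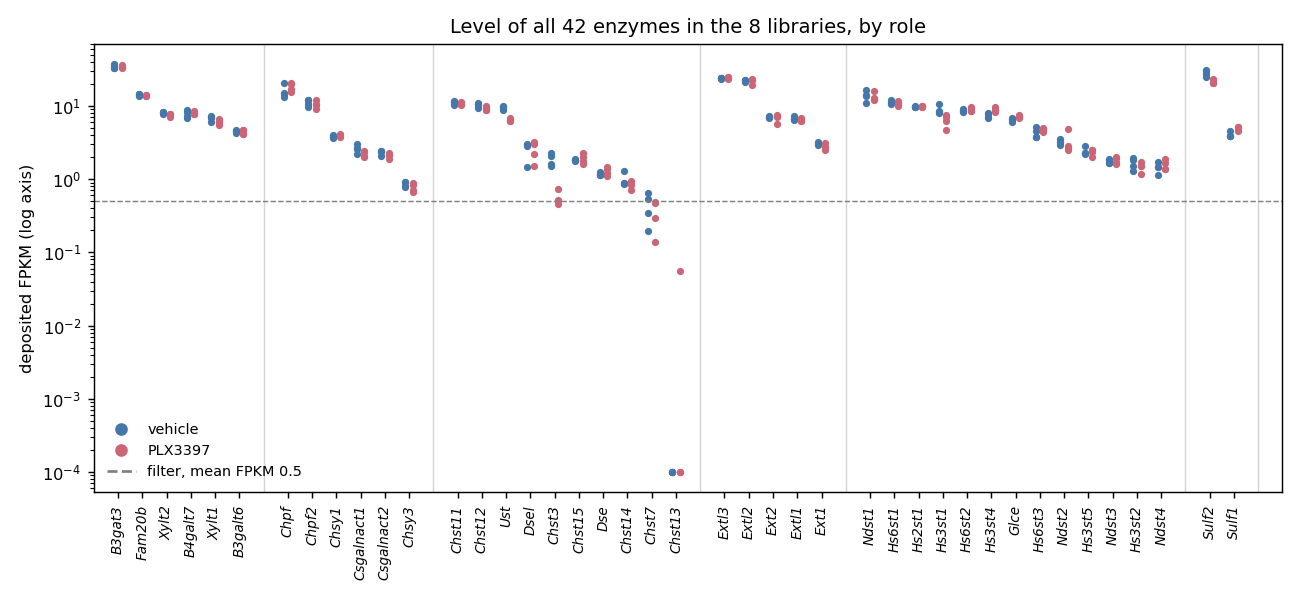
Deposited FPKM (log axis) of each of the 42 enzymes in the 4 vehicle (blue) and 4 PLX3397 (red) libraries, grouped by role and ordered by vehicle level; the dashed line marks the mean of 0.5 FPKM needed for a test. Most enzymes lie at the same height in both groups, Chst3 stands apart, and Chst7 and Chst13 lie under the line or around it.

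PLX3397 was compared with vehicle to ask which steps of chain synthesis differ where microglia were depleted. Of the 42 enzymes, 40 had a mean of at least 0.5 FPKM and were tested, and Chst7 and Chst13 were not. Chst3 and Ust, sulfotransferases of chondroitin and dermatan sulfate, fell, and no enzyme rose (edgeR, p adjusted over all genes, threshold 0.05). The 2 calls are 5% of the tested enzymes, where 1.83% of all 16894 tested genes were called lower and 0.308% higher. Another 5 enzymes, all of heparan sulfate, had separate groups without passing: Sulf2 and Hs3st1 were lower and Sulf1, Hs3st4 and Glce higher in each PLX3397 library than in any vehicle library. That makes 4 enzymes (10% of those tested) lower and 3 (7.5%) higher without overlap, against 6.32% and 4.85% of all tested genes. At an unadjusted p under 0.05 the count was 7 of 40, or 17.5%, and 16.2% over all tested genes.

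**Figure D2:**
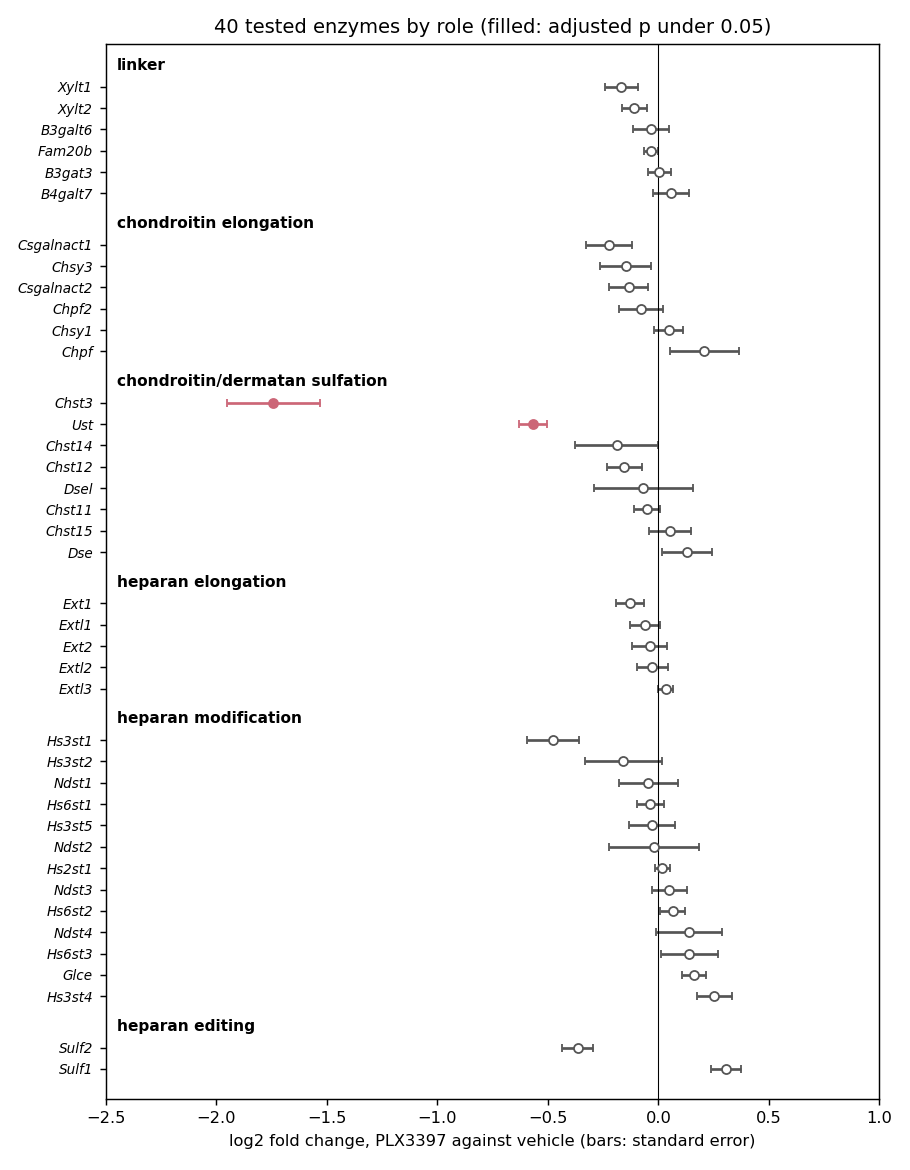
Log2 fold change of PLX3397 against vehicle (horizontal axis) for the 40 tested enzymes, grouped by role, with bars for 1 standard error and filled points for adjusted p under 0.05. Chst3 at -1.74 and Ust at -0.57 are the filled points, and the other 38 lie between -0.48 and 0.31.

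By chain type, 2 of 14 tested chondroitin and dermatan enzymes (14.3%), 0 of 20 heparan enzymes and 0 of 6 linker enzymes were called. Of all tested genes 1.83% were called lower. The heparan enzyme Sulf2 missed the threshold narrowly (edgeR adjusted p = 0.0507) and passed in 10 of 20 alternatives. At an unadjusted p under 0.05 (edgeR) the counts were 2 of 14 (14.3%), 5 of 20 (25%) and 0 of 6, against 16.2% of all tested genes. The median log2 fold change was -0.11 for chondroitin and dermatan sulfate, -0.02 for heparan sulfate and -0.03 for the linker, beside -0.0025 over all tested genes. The heparan median had no settled sign, since it was above 0 in 7 of the 8 fits without 1 library (up to 0.02, without PLX3397 F2 or vehicle F2), and the chondroitin and dermatan median was -0.04 without vehicle M2. A negative sign was held by 10 of 14, 11 of 20 and 4 of 6 of them (71.4%, 55% and 66.7%), against 50.6% of all tested genes. Whether the chain types differ from each other was not tested.

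The linker enzymes, which build the stub common to all these chains, showed no call. Xylt1 and Xylt2 are the xylosyltransferases that start the linker. Xylt1 measured 66.6, 81.1, 77.0 and 75.7 CPM in vehicle F1, F2, M1 and M2 and 67.1, 61.8, 65.4 and 73.3 CPM in the PLX3397 libraries in the same order (log2 fold change -0.17 ± 0.07, standard error; edgeR adjusted p = 0.317). The groups overlapped through the low vehicle F1. Xylt2 had -0.11 ± 0.06 (adjusted p = 0.404). The galactosyltransferases B4galt7 and B3galt6, the glucuronyltransferase B3gat3 and the xylose kinase Fam20b completed the linker set, which ran from -0.17 to 0.06. Summed over the 6 genes, the level was 75.9 ± 1.22 FPKM with vehicle and 74.2 ± 1.61 FPKM with PLX3397 (SD, n = 4 each).

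Chondroitin chains are begun by Csgalnact1 and Csgalnact2 and lengthened by the synthases and polymerising factors Chsy1, Chsy3, Chpf and Chpf2. None of the 6 was called, with fold changes from -0.22 to 0.21 on the log2 scale. Csgalnact1 was 15.2 ± 1.83 CPM (SD, n = 4) with vehicle and 13.0 ± 1.14 CPM (SD, n = 4) with PLX3397 (-0.22 ± 0.10, edgeR adjusted p = 0.34), and its groups overlapped. Csgalnact2 had -0.13 ± 0.09 (adjusted p = 0.511). Chpf was the most abundant of this step, at 17.1 FPKM over the 8 libraries, and Chsy3 the least, at 0.815 FPKM.

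The sulfation step of chondroitin and dermatan sulfate held both calls. Chst3, which places sulfate on the 6-O position of N-acetylgalactosamine in chondroitin (chromosome 10, 60181532 to 60219260, minus strand, mm10), measured 11.9, 11.3, 15.5 and 17.0 CPM in vehicle F1, F2, M1 and M2. In PLX3397 F1, F2, M1 and M2 it measured 5.56, 3.89, 3.69 and 3.42 CPM. Every PLX3397 library thus lay under every vehicle library, and the vehicle males were above the vehicle females. Chst3 fell 3.36-fold, from a mean of 13.9 ± 2.77 CPM with vehicle to one of 4.14 ± 0.97 CPM (SD over 4 pups per group; log2 change -1.74 ± 0.21, edgeR adjusted p = 0.00951). Its raw counts were 656 to 1016 in vehicle and 189 to 370 in PLX3397 libraries. The call was lost without vehicle F1 and PLX3397 M2 together (-1.69, adjusted p = 0.0847).

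Ust, the uronyl 2-O-sulfotransferase that adds sulfate to the uronic acid of chondroitin and dermatan sulfate (chromosome 10, 8204756 to 8518825, minus strand), measured 45.4, 50.4, 51.7 and 53.6 CPM in vehicle F1, F2, M1 and M2. The PLX3397 libraries in that order held 32.9, 34.3, 32.3 and 36.1 CPM. The groups were separate and narrow. Ust fell 1.48-fold, from a mean of 50.3 ± 3.51 CPM with vehicle to one of 33.9 ± 1.71 CPM (SD over 4 pups per group; -0.57 ± 0.06, edgeR adjusted p = 0.00654). The call held without vehicle F1 and PLX3397 M2 (-0.64, adjusted p = 0.0332). No tested gene overlaps the span of Chst3 or of Ust. Summed markers of microglia and of the oligodendrocyte lineage were lower in the same 4 libraries, with values given after the pathway genes, and their part in these falls was not tested.

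**Figure D3:**
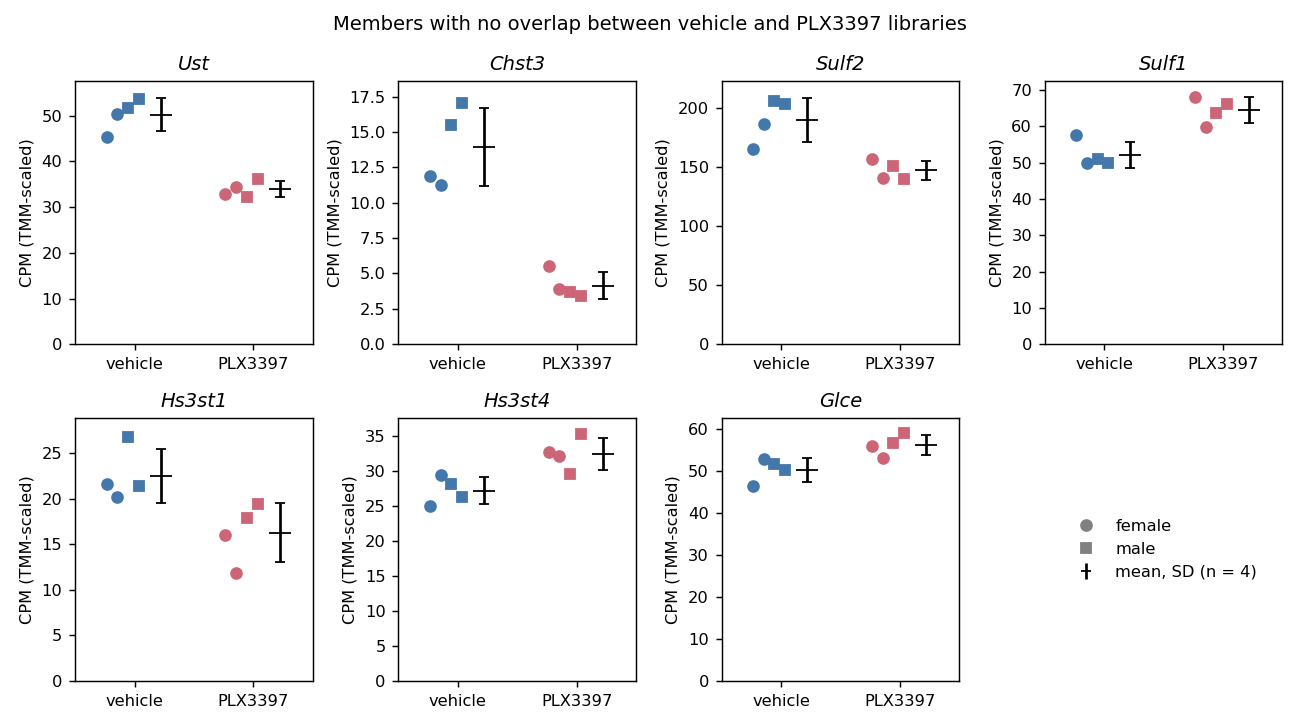
TMM-scaled CPM per library (vertical axes, from 0) of the 7 tested enzymes whose vehicle (blue) and PLX3397 (red) values do not overlap, with circles for females, squares for males and bars for mean and SD. Ust, Chst3, Sulf2 and Hs3st1 are lower in all 4 PLX3397 libraries and Sulf1, Hs3st4 and Glce higher; only Ust and Chst3 pass the test over all genes.

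The promoters of Chst3 and Ust are shown because these were the 2 enzymes called. RefSeq (GRCm38.p6, whose primary assembly is mm10) gave a promoter for 34 of the 42 enzymes, as the 250 bases before and 50 after the transcription start. The windows were chr10:60219211-60219510 for Chst3 and chr10:8518776-8519075 for Ust, both on the minus strand. Capitals mark matches, on either strand, to any of 4 short motifs that were searched. The GC box was searched as GGGCGG, the core of sites that the SP family of factors bind. The TATA box, found near the start of some promoters, was searched as TATAAA. The core that SOX factors bind was searched as ACAAAG, and one form of the E-box, bound by basic helix-loop-helix factors, was searched as CAGCTG. In these windows no match overlapped another.
Chst3: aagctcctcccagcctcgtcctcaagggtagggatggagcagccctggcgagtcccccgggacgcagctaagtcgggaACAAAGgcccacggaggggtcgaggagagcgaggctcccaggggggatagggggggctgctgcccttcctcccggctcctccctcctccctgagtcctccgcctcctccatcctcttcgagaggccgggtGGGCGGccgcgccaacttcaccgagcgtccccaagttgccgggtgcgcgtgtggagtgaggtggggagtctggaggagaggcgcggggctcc
Ust: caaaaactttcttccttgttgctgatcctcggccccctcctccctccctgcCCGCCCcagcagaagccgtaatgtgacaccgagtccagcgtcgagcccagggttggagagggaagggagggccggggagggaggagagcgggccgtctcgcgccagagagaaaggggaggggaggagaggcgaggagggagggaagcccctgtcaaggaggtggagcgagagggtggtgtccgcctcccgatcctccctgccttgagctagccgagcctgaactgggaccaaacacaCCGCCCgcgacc

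The Chst3 window held 1 GC box and 1 SOX core and was 70% G or C. The Ust window held 2 GC boxes, both read on the opposite strand, and was 66.3% G or C. The median over all 32851 promoters was 52.7%. Neither window held a TATA box or this E-box. Of all promoters of this length 35.7% held the GC box, 18.7% the SOX core, 13.6% the TATA box and 16.3% the E-box, so these matches are a description of the letters and say nothing of binding.

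The paralogue of Chst3 with the same 6-O activity on chondroitin, Chst7, was too low to be tested. It measured 1.61, 0.498, 1.37 and 0.888 CPM in vehicle F1, F2, M1 and M2 and 0.767, 0.359, 1.22 and 1.21 CPM in the PLX3397 libraries, on 23 to 94 counts a library. Those groups overlapped. The 4-O-sulfotransferases were more abundant than either: Chst11 had 10.99 FPKM and Chst12 9.75 FPKM over the 8 libraries. Neither of them was called.

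The balance of the 6-O and 4-O enzymes was described from sums of FPKM without a test, with Chst14 and Chst15 left out. Chst15 was 1.84 ± 0.0428 FPKM with vehicle and 1.91 ± 0.282 FPKM with PLX3397 (SD, n = 4 each). Chst14 was 0.980 ± 0.211 and 0.845 ± 0.105 FPKM (SD, n = 4 each). Chst3 and Chst7 together were 2.26, 1.71, 2.61 and 2.62 FPKM in vehicle F1, F2, M1 and M2 and 1.04, 0.656, 0.982 and 0.93 FPKM in the PLX3397 libraries. Chst11, Chst12 and Chst13 together were 21.5 ± 1.16 FPKM with vehicle and 19.98 ± 0.969 FPKM with PLX3397 (SD, n = 4 each). The 6-O to 4-O ratio was thus 0.107 ± 0.0209 with vehicle and 0.0455 ± 0.0102 with PLX3397 (SD, n = 4 each). All 4 vehicle libraries, from 0.0762 to 0.12, were above all PLX3397 libraries, from 0.0311 to 0.0535. Chst3 supplied 81.6 ± 7.69% of the 6-O sum in vehicle and 62.5 ± 14.8% in PLX3397 libraries, so the ratio is not independent of its call. These are transcript levels, and sulfation itself was not measured.

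The 6 uncalled enzymes of this step, Chst11 and Chst12 among them, ran from -0.19 to 0.13 on the log2 scale, with adjusted p from 0.402 to 0.917. The other 4 were the dermatan 4-O-sulfotransferase Chst14 (0.913 FPKM), Chst15, which adds a second sulfate to 4-O-sulfated units (1.88 FPKM), and the epimerases Dse and Dsel (1.24 and 2.53 FPKM), which turn chondroitin into dermatan sulfate. Dsel was the least even, at 19.6, 18.8, 9.76 and 19.6 CPM in vehicle F1, F2, M1 and M2 and 21.2, 20.1, 14.7 and 10.1 CPM in the PLX3397 libraries. Its 2 low libraries under 11 CPM, vehicle M1 and PLX3397 M2, were both male.

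Heparan chains are begun by Extl3 and lengthened by the copolymerase of Ext1 and Ext2, with Extl1 and Extl2 as related transferases. These 5 had fold changes from -0.13 to 0.03, and none was called. Ext1 was 28.4 ± 1.24 CPM (SD, n = 4) with vehicle and 26.0 ± 2.26 CPM (SD, n = 4) with PLX3397 (-0.13 ± 0.06, edgeR adjusted p = 0.368). Extl3 was 166 ± 3.23 and 170 ± 5.11 CPM (0.03 ± 0.03, adjusted p = 0.697). The sum of the 5 was 63.1 ± 1.31 FPKM with vehicle and 62.2 ± 0.847 FPKM with PLX3397 (SD, n = 4 each).

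Among the 13 enzymes that modify heparan sulfate none was called, and 3 had separate groups. Hs3st1, a 3-O-sulfotransferase known for making the antithrombin-binding site, measured 21.6, 20.2, 26.8 and 21.4 CPM in vehicle F1, F2, M1 and M2. In the PLX3397 libraries it measured 16.0, 11.9, 17.9 and 19.4 CPM (-0.48 ± 0.12, edgeR adjusted p = 0.107). The gap between the groups was narrow, from 19.4 to 20.2 CPM, and PLX3397 F2 was the lowest. Hs3st4, a brain-enriched member of the same family, measured 25.0, 29.4, 28.2 and 26.2 CPM with vehicle and 32.6, 32.1, 29.6 and 35.3 CPM with PLX3397 (0.25 ± 0.08, adjusted p = 0.181). Its PLX3397 M1 lay only just above vehicle F2. Glce, the epimerase that turns glucuronic into iduronic acid, was 46.4 to 52.9 CPM in vehicle and 53.2 to 59.2 CPM in PLX3397 libraries (0.16 ± 0.06, adjusted p = 0.216).

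The remaining 10 modifying enzymes had overlapping groups. They were the N-deacetylase/N-sulfotransferases Ndst1, Ndst2, Ndst3 and Ndst4, the 2-O-sulfotransferase Hs2st1, the 6-O-sulfotransferases Hs6st1, Hs6st2 and Hs6st3, and the 3-O-sulfotransferases Hs3st2 and Hs3st5. Ndst1 had the highest level of these (13.7 FPKM) and Ndst4 the lowest (1.5 FPKM). Summed, the 13 enzymes were 81.0 ± 1.85 FPKM with vehicle and 80.6 ± 3.18 FPKM with PLX3397 (SD, n = 4 each). The span of Ndst1 overlaps that of the ribosomal protein gene Rps14, whose mean count was above its own, so reads of the 2 cannot be assigned with certainty. The same limit holds for Chpf2 with Smarcd3 (mean count 4111 against 5920) and Chst15 with Fgfr2 (861 against 1933). In all, the spans of 8 of the 42 enzymes overlap a tested gene.

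Sulf1 and Sulf2 are extracellular sulfatases that strip 6-O-sulfate from finished heparan chains, and their transcripts lay on opposite sides. Sulf2 measured 165, 186, 206 and 203 CPM in vehicle F1, F2, M1 and M2 and 157, 141, 151 and 140 CPM in the PLX3397 libraries (-0.36 ± 0.07, edgeR adjusted p = 0.0507). Sulf1 measured 57.6, 49.9, 50.9 and 49.95 CPM with vehicle and 68.0, 59.7, 63.6 and 66.1 CPM with PLX3397 (0.31 ± 0.07, adjusted p = 0.0754). Both pairs of groups were separate, and vehicle F1, the library with pituitary transcripts, was the vehicle library nearest to the PLX3397 values in each. Without vehicle F1 both passed, Sulf2 at -0.42 (adjusted p = 0.0319) and Sulf1 at 0.37 (adjusted p = 0.0436). Without vehicle F1 and PLX3397 M2 together neither passed (adjusted p = 0.0796 for Sulf2 and 0.146 for Sulf1). Of the 20 alternatives Sulf2 passed in 10, among them the fit without PLX3397 F1 (adjusted p = 0.0262), and Sulf1 passed in 3. The span of Sulf2 overlaps the tested gene Ncoa3 on the other strand, and that of Sulf1 overlaps none.

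Sex was examined next, since each group held both. No enzyme was called for the PLX3397 effect in females minus that in males (edgeR, 0 of 40; 0.077% of all tested genes were called), and only Chst3 had an unadjusted p under 0.05 for it. Its value was 0.90 ± 0.26 on the log2 scale (edgeR adjusted p = 0.761), which did not pass and has the sign of a smaller difference in females. Between females and males with treatment as covariate 0 of 40 were called as well (0.0592% of all tested genes), with 2 at an unadjusted p under 0.05, Dsel (0.56, adjusted p = 0.933) and Hs3st1 (-0.31, adjusted p = 0.933), higher in females and in males respectively. With DESeq2 both counts were also 0.

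Genes next to these enzymes in the pathway were taken from lists of 63 genes, of which 56 were tested, 6 fell (10.7%) and 0 rose. Over all tested genes 1.83% were called lower and 0.308% higher. The lists were chosen with earlier results of these data known. Of 16 tested genes that supply sugar precursors and sulfate donor, 2 fell: Slc35b2 and Slc35b3, the transporters that carry the sulfate donor PAPS into the Golgi. Slc35b2 measured 38.1, 37.1, 41.5 and 42.6 CPM in vehicle F1, F2, M1 and M2 and 28.9, 27.1, 29.2 and 28.5 CPM in the PLX3397 libraries (-0.49 ± 0.05, edgeR adjusted p = 0.00582). Slc35b3 was 13.7 ± 0.781 CPM (SD, n = 4) with vehicle and 9.49 ± 0.405 CPM (SD, n = 4) with PLX3397 (-0.53 ± 0.07, adjusted p = 0.0152). Both transporters were lower in every PLX3397 library than in any vehicle library. All sulfotransferases described here draw on that donor.

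Of 12 tested genes of lysosomal and extracellular breakdown, 2 fell. Arsb, the lysosomal sulfatase that removes 4-O-sulfate from chondroitin and dermatan sulfate, went from a mean of 135 ± 8.26 CPM with vehicle to one of 94.9 ± 5.05 CPM (SD over 4 pups per group; -0.50 ± 0.06, edgeR adjusted p = 0.00845). Of the proteins that carry the chains, 2 of 10 chondroitin sulfate core genes fell, Vcan (-1.27, adjusted p = 0.0046) and Bcan (-0.42, adjusted p = 0.0441). Dcn, which is also in the meningeal marker list, was higher in every PLX3397 library than in any vehicle library without passing (0.87, edgeR adjusted p = 0.0852). So were 2 heparan sulfate core genes, Col18a1 (0.47, adjusted p = 0.0968) and Gpc5 (0.12, adjusted p = 0.289). Counting called genes too, groups without overlap were also found in the other lists. Of the 16 supply genes 4 were lower and 1 higher, and of the 12 breakdown genes 3 were lower and 3 higher. Of the 5 tested keratan sulfate genes 1 was lower and 0 higher. Over all tested genes 6.32% were lower and 4.85% higher without overlap. None of the 13 heparan sulfate core genes and none of the 5 tested keratan sulfate genes was called, and the 3 other 3-O-sulfotransferase genes were too low to test.

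Markers of cell types moved with Chst3 and Ust in the same libraries. The 8 oligodendrocyte precursor markers summed to 833 to 1094 CPM in vehicle and 348 to 463 CPM in PLX3397 libraries. Of these 8, 5 fell (Olig1, Olig2, Sox10, Neu4 and Gpr17), and all 8 had a negative sign. The 7 markers of committed and newly formed oligodendrocytes summed to 580 to 1010 CPM and 212 to 281 CPM, and 6 of 7 fell. The 8 myelin markers summed to 6217 to 9444 CPM and 2104 to 4802 CPM, and 3 of 8 fell, which here means an adjusted p under 0.05. All 8 had a negative sign and an unadjusted p under 0.05 (edgeR), and 7 of 8 were lower without overlap. Of the 8 microglial markers 5 fell in that sense, and all 8 were lower without overlap (median log2 fold change -3.15). Shares over all tested genes were 1.83% called lower, 16.2% at an unadjusted p under 0.05 (edgeR) and 6.32% lower without overlap. C1qa was at 0 in 1 PLX3397 library, the only marker of these 4 lists at 0 in any library. Pdgfra, the receptor of early precursors, was not called (-0.21, edgeR adjusted p = 0.182). Cspg4 and Lhfpl3 of the precursor list were not called either, so the summed level of that list is not a measure of precursor number.

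In vehicle, Chst3 was higher in the males, and so were the precursor, committed and myelin sums. In PLX3397 libraries the order differed between them: M2 had the lowest sum of each of these 4 lists and the lowest Chst3, but the highest Ust. Astrocyte markers overlapped between the groups (3065 to 3653 and 3276 to 3535 CPM) with 0 of 7 called. Neuronal markers were slightly higher in PLX3397 libraries (4076 to 4292 against 3834 to 4066 CPM, 1 of 8 called). Of these 8, 6 had an unadjusted p under 0.05 (edgeR) and 5 were higher without overlap. Shares over all tested genes were 0.308% called higher, 16.2% at an unadjusted p under 0.05 (edgeR) and 4.85% higher without overlap. The 6 meningeal fibroblast markers summed to 239 to 332 CPM in vehicle and 331.7 to 470 CPM in PLX3397 libraries, so that the groups met at 1 library each, with 1 of 6 called higher (Slc6a13), 4 of 6 at an unadjusted p under 0.05 and a median log2 fold change of 0.65. The part of the neuronal or meningeal cells in the levels of Sulf1, Hs3st4 and Glce was not tested either.

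**Figure D4:**
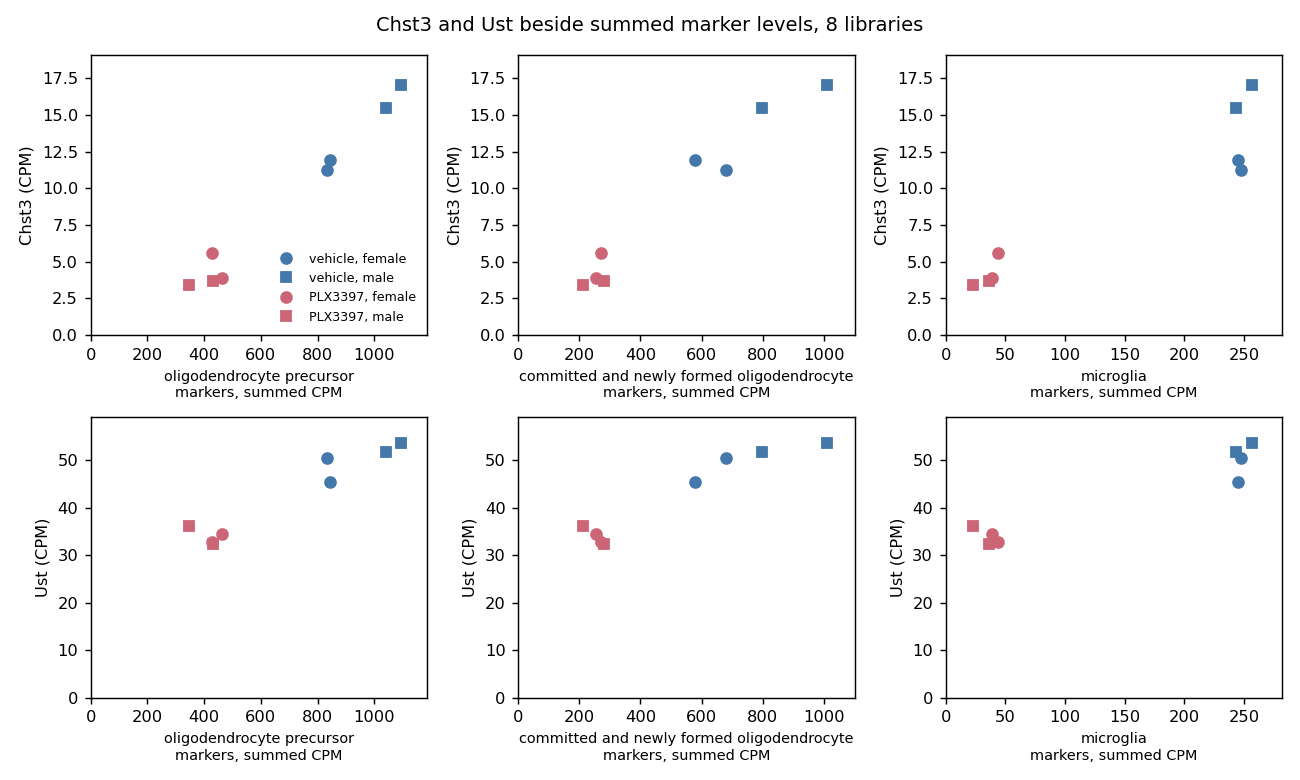
CPM of Chst3 (top) and Ust (bottom) in each of the 8 libraries against the summed CPM of the precursor, committed oligodendrocyte and microglial marker lists (horizontal axes), with circles for females and squares for males. The vehicle (blue) and PLX3397 (red) libraries form 2 separate clouds in every panel, so no correlation was computed.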

How the data were processed

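RNA from 8 mouse hypothalami (4 vehicle, 4 PLX3397) was depleted of ribosomal RNA and sequenced, per the labels' protocols. The authors deposited 1 table holding whole-number counts and FPKM for each gene with its coordinates, per the file headers. The build is given as mm10 in the submitters' processing notes, which also list, with no roles, DESeq2, limma, StringTie, HISAT2 and bcl2fastq 2.0. How reads were assigned to genes, and whether by strand, was not stated in the labels. A gene with no counts is listed at 0.0001 in the FPKM columns deposited.

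Counts of the 16894 genes whose mean FPKM reached 0.5 were fitted with edgeR 4.0.16 (R 4.3.3), quasi-likelihood F-test, TMM scaling, sex as covariate and Benjamini-Hochberg adjustment over all 16894. Standard errors are the absolute log2 fold change over the square root of F. The difference in response between sexes came from a model with 4 groups. Alternatives used DESeq2 1.42.0 and limma 3.58.1, other filters, scalings and designs, and each library left out. Labels do not say that pups came from separate litters, so p-values measure the spread between these animals. Total counts were 54115300 to 67487391, and within each group every 2 libraries differed by more than sampling noise.

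The enzymes, the gene lists and the pair of libraries left out together (vehicle F1 and PLX3397 M2) were chosen with earlier results of these data known. Fold changes are given for enzymes that were called or had separate groups, and for the 2 smallest p-values in each role, and a few others were named for their level, for the balance of sulfation for a difference between sexes or, among core proteins, for separate groups after their values were seen. Same-labelled libraries of the 2 groups (F1 with F1, and so on) are different animals, so the label was not a block. The values of 1 gene counted among the pathway genes are not reported here.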

Additional observations from a re-analysis of the deposited data

Results flagged for a closer look

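In 3 of 46 groups of 4 values examined, 1 library lay far from the other 3 of its group, and chance alone gives about 1 in 20 such groups. Csgalnact2 was 13.1 CPM in vehicle M2, against 14.8 to 15.01 CPM in the other vehicle libraries. Sulf1 was 57.6 CPM in vehicle F1, against 49.9 to 50.9 CPM in the others, and that library also held pituitary markers at 3062 CPM. The ratio of 6-O to 4-O chondroitin sulfotransferase FPKM was 0.0762 in vehicle F2, against 0.114 to 0.12 in the others. Chst7, too low to be tested, was 0.196 FPKM in vehicle F2 on 29 counts, against 0.345 to 0.64 FPKM in the other vehicle libraries. Chst3 was 1.51 FPKM there, against 1.62 to 2.28 FPKM.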

How the results depend on the processing

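All 260 values of the 13 enzymes with a fold change (20 alternatives each) kept their direction, and 244 kept their side of the threshold. Ust passed in all 20 alternatives and Chst3 in 18. The 362 genes called in all became 1097 with DESeq2, 123 without vehicle F1 and PLX3397 M2 together, and 138 to 361 without 1 library (262 without vehicle F1, 361 without PLX3397 F1, and 138 to 224 without any of the others). The 2 enzymes called lower became 4 with DESeq2 (Chst3, Ust, Sulf2 and Hs3st1) and 1 (Ust) without vehicle F1 and PLX3397 M2. They became 3, with Sulf2 added, under RLE or upper-quartile scaling and with a mean FPKM of at least 1. Sulf2 was also added in both limma fits, with robust edgeR and without the sex covariate. Without 1 library the enzymes called lower were 2 to 3 (3, with Sulf2, without vehicle F1 or PLX3397 F1). The 0 called higher became 1, Sulf1, with DESeq2, without the sex covariate and without vehicle F1, and ran from 0 to 1 without 1 library. The replicate label as a block (replicate block) gave 79 genes and 1 enzyme, Ust, with Chst3 at -1.75 (edgeR adjusted p = 0.06), Sulf2 at adjusted p = 0.157 and Sulf1 at adjusted p = 0.0954. Deviations of same-labelled libraries correlated at 0.0296 to 0.101, with 3 of 4 not above 0.1, and the labels name no shared litter or day, so the label was not taken as a pairing. For 3 of 4 labels the best partner did have the same label, and that of vehicle M2 was PLX3397 M1. Same-labelled libraries share sex, which was not taken out of the deviations. Pairing and shared sex can therefore not be told apart here. No enzyme was called for sex or for its interaction with treatment in the alternatives run, which for these 2 questions did not include the block or the fit without sex. With 1 library left out, 1 arm of that interaction holds a single library, assumed to vary like the others. Chst7 and Chst13 were under the filter on low values and have no test.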
